A study of Homo sapiens with 6 samples.

Results

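The genes that encode collagen, laminin and integrin chains were followed in a human lung carcinoma cell line, NCI-H460, in which CPT1 had been targeted by CRISPR interference. CPT1 stands for the carnitine palmitoyltransferases, which move long-chain fatty acids into mitochondria. Members were taken by gene symbol alone: collagen chains (COL, a number, A, a number), laminin alpha, beta and gamma chains (LAMA, LAMB and LAMC with a number) and integrin alpha and beta chains (ITGA and ITGB). The rule found 48 genes among the 52775 genes kept from the table, of which 25 were collagens, 9 laminins and 14 integrins. Chain genes outside these 48 were not analysed here, so every order of levels, sum and share below is among the listed genes. A test was made for the 25 members whose mean over the 6 libraries reached 1 FPKM, out of 8887 such genes in all. FPKM count the fragments of a gene relative to transcript length and to all mapped fragments of a library, so levels can be compared between genes.

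All cells carried a lentiviral KRAB-dSpCas9, a dead Cas9 joined to a repressor domain that lowers transcription where a guide RNA places it. The sgNTG group had a nontargeting guide and the labelled genotype WT, and the sg1 and sg2 groups each had a different guide against CPT1 and the labelled genotype CPT1 knockdown. Puromycin at 2 μg/ml was used to select infected cells from 48 h after infection and was kept on in all 3 groups. Each group had 2 libraries of mRNA captured on beads. The labels do not say whether these came from separate cultures. The p-values therefore cover only the spread between libraries of the same group, pooled over the 3 groups, which may be technical. The CPT1 genes themselves were not analysed here.

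Collagens are triple helices of 3 chains that form fibrils, sheets or networks outside the cell. Laminins are heterotrimers of an alpha, a beta and a gamma chain, and together with type IV collagen they build the basement membrane under epithelia. Integrins are heterodimers of an alpha and a beta chain that span the plasma membrane, bind these proteins and connect them to the actin or keratin cytoskeleton. In lung carcinoma cells the choice of chains sets which matrix proteins a cell can assemble and hold on to.

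The DNA before the start of 4 members is shown to set abundant chain genes beside one at a very low level. LAMC1 and LAMB1 were the members of highest level, LAMB4 is a laminin beta chain gene that lies beside LAMB1 on chromosome 7 and was listed at 0.0456 to 0.180 FPKM, and COL4A5 was the most abundant basement membrane collagen gene listed. Each sequence is the sense strand, 5′ to 3′, of up to 250 bases before the RefSeq start (GRCh38.p14), without bases that GENCODE 29 places inside the gene. Capitals mark GGGCGG or its reverse complement CCGCCC in LAMC1 and LAMB1, and CCAAT or its reverse complement ATTGG in LAMB4 and COL4A5. The windows lie at chr1:183023170-183023419 on the plus strand, chr7:108003256-108003411 on the minus strand, chr7:108130362-108130611 on the minus strand and chrX:108439588-108439837 on the plus strand.
LAMC1: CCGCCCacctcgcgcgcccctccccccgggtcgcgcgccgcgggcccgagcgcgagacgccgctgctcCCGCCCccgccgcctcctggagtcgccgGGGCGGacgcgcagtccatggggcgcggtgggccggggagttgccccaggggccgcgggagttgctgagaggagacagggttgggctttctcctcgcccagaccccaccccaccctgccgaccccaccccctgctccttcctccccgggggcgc
LAMB1: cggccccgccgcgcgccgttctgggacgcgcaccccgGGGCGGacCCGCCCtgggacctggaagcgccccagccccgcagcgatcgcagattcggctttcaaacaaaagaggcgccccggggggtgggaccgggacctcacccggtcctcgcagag
LAMB4: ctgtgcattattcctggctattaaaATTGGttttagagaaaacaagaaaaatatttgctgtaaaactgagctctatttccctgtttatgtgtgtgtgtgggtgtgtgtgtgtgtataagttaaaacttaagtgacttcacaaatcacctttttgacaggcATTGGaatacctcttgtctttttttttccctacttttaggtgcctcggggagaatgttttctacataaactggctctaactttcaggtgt
COL4A5: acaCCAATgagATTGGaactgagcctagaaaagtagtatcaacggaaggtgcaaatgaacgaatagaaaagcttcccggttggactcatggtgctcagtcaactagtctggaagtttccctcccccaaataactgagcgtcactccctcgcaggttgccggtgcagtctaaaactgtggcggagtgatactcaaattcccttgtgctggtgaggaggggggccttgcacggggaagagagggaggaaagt
The LAMC1 window held 3 GGGCGG matches and 32 CG dinucleotides over 250 bases. The LAMB1 window held 2 such matches and 21 CG dinucleotides over 156 bases. The LAMB4 window had none of those matches and 1 CG dinucleotide, with 2 CCAAT matches. The COL4A5 window had 2 CCAAT matches, no GGGCGG and 8 CG dinucleotides, so the abundant genes shown do not share one set of letters.

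Of the 48 members, 36 had a RefSeq window and 29 had exactly 1, and the motif counts were made on these 29 over the full 250 bases, both strands. GGGCGG, the letters of an SP1 site, was found in 10 of 14 tested members (71.4%), in 7 of 15 members below 1 FPKM (46.7%) and in 42.6% of all 35116 windows. The median number of CG dinucleotides was 16.5 in the tested members, 10.0 in those below 1 FPKM and 11 in all windows. The tested members thus had the higher share and the higher median. Windows of all genes that reached 1 FPKM were not counted apart, so whether this is particular to the members was not tested. TATAAA was found in 2 of the 14 (14.3%), 1 of the 15 (6.67%) and 10.7% of all windows. CCAAT was found in 3 of the 14 (21.4%), 4 of the 15 (26.7%) and 32.0% of all windows. TGANTCA, the letters bound by AP-1, was in none of the 29 and in 6.57% of all windows. None of the 4 motifs overlaps another in its own letters, and a match describes the letters only.

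Among the listed genes, laminin chains had the highest sum of the 3 families. Together the listed laminins came to 542 to 597 FPKM in a library, against 287 to 305 FPKM for the collagens and 151 to 167 FPKM for the integrins. Over all members, 12 had a mean of 10 FPKM or more and 6 had a mean of 50 FPKM or more. LAMC1, the gamma chain shared by many laminins (chr1:183023460-183145592, plus strand), was listed at 226 and 233 FPKM in sgNTG, 207 and 211 in sg1 and 235 and 233 in sg2. LAMB1, its usual beta chain partner (chr7:107923799-108003255, minus strand), was listed at 221 and 193 FPKM in sgNTG, 186 and 188 in sg1 and 201 and 204 in sg2. LAMC1 was the higher of this pair in 6 of 6 libraries, with a LAMC1 to LAMB1 ratio of FPKM between 1.03 and 1.21.

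The chains of one classical basement membrane laminin were thus listed together, with the alpha chain lowest. LAMA1, that alpha chain, was at 94.5 and 92.1 FPKM in sgNTG, 91.6 and 91.6 in sg1 and 94.9 and 93.9 in sg2, with a LAMA1 to LAMB1 ratio of 0.428 to 0.492. LAMB2, the beta chain of neuromuscular and kidney laminins, was at 40.8 and 42.9 FPKM in sgNTG, 41.2 and 41.6 in sg1 and 42.1 and 41.5 in sg2. Both were nearly level over all 6 libraries and their groups lay within a few FPKM. LAMC1, LAMB1, LAMA1 and LAMB2 ranked 139, 157, 362 and 842 by mean FPKM among the 8887 tested genes.

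Other laminin chains were listed at a far lower level. LAMB3, the beta chain of the epithelial laminin of anchoring filaments, was at 7.87 and 7.55 FPKM in sgNTG, 8.99 and 8.75 in sg1 and 8.32 and 8.47 in sg2. The sg1 libraries were the highest of the 6. LAMC3, a further gamma chain, was at 1.12 to 1.35 FPKM.

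**Figure D1:**
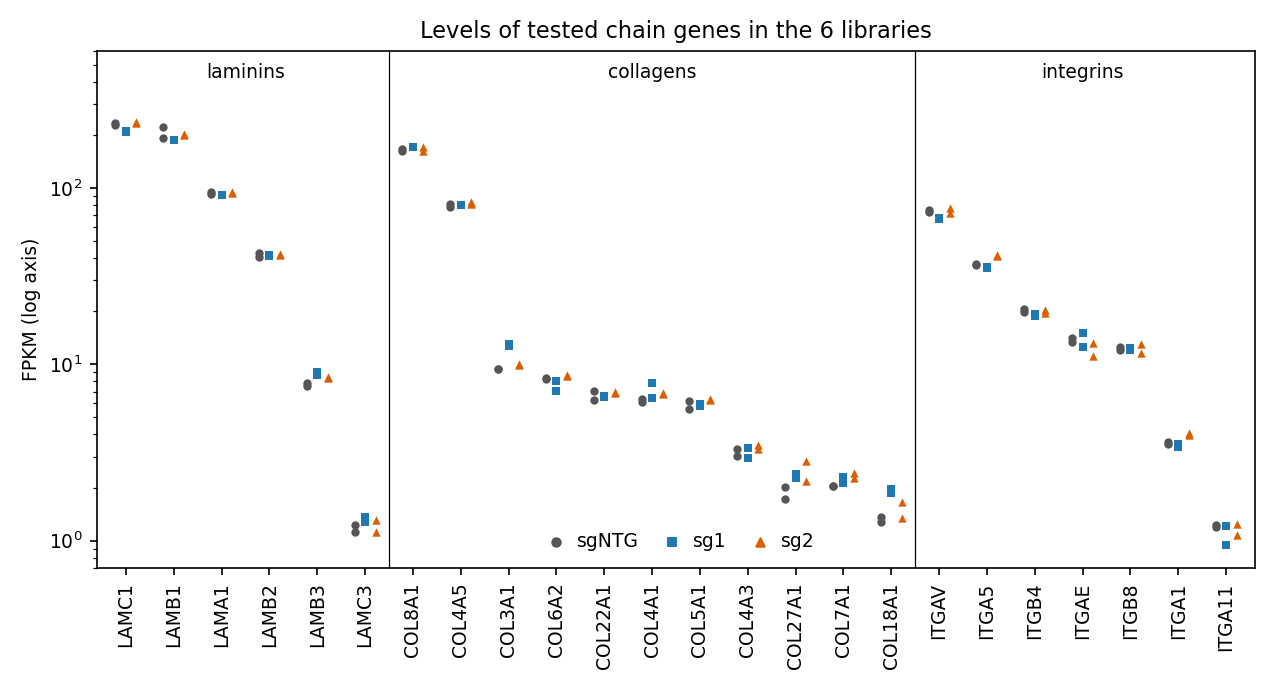
FPKM (log axis) of tested members in each of the 6 libraries, grouped by family and ordered by mean level, with grey circles for sgNTG, blue squares for sg1 and orange triangles for sg2. Each family is led by a few chains, from LAMC1 at 207 to 235 FPKM down to ITGA11 near 1 FPKM. The groups lie close together at most genes, while sg1 stands above the rest for COL3A1 and COL18A1.

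The listed collagen FPKM was concentrated in a pair of network-forming collagens. COL8A1, a short-chain collagen that forms hexagonal networks, was listed at 162 and 166 FPKM in sgNTG, 171 and 171 in sg1 and 172 and 161 in sg2. COL4A5, a type IV collagen chain of the basement membrane, was at 78.2 and 80.9 FPKM in sgNTG, 80.3 and 80.0 in sg1 and 83.0 and 81.4 in sg2. These 2 genes made up 83.1% to 84.7% of the listed collagen FPKM in every library. COL8A2, the chain that can join COL8A1 in a heterotrimer, was below the test filter at 0.0820 to 0.226 FPKM.

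The type IV chains were far from equal. COL4A1, the widespread alpha 1 chain, was at 6.35 and 6.08 FPKM in sgNTG, 7.79 and 6.43 in sg1 and 6.79 and 6.85 in sg2. COL4A3, which assembles with COL4A5 in kidney and lung basement membranes, was at 2.93 to 3.48 FPKM. COL4A5 exceeded COL4A1 by a ratio of 10.3 to 13.3 and COL4A3 by a ratio of 23.7 to 27.3.

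Fibrillar collagens were low. COL3A1, a fibrillar homotrimer of elastic tissues (chr2:188974320-189012746, plus strand), was the third collagen by level, at 9.40 and 9.40 FPKM in sgNTG, 12.6 and 13.0 in sg1 and 10.1 and 9.85 in sg2. Its share of the listed collagen FPKM was 4.18% and 4.31% in the sg1 libraries and 3.22% to 3.38% in the other 4. COL5A1, which starts fibrils in tissues rich in type I collagen, was at 5.54 to 6.34 FPKM, and the COL3A1 to COL5A1 ratio was 2.16 and 2.19 in the sg1 libraries and 1.53 to 1.70 in the other 4. COL27A1, a fibrillar collagen of cartilage, was at 1.72 to 2.85 FPKM. COL1A2, a chain of type I collagen, was listed at 0 in 5 of 6 libraries and at 0.00869 FPKM in the other one.

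The remaining tested collagens have other forms. COL6A2, a chain of beaded microfibrils, was at 8.41 and 8.22 FPKM in sgNTG, 7.02 and 8.01 in sg1 and 8.67 and 8.60 in sg2. COL22A1, a collagen of tissue junctions, was at 6.29 to 7.10 FPKM. COL7A1, the collagen of skin anchoring fibrils, was at 2.04 to 2.43 FPKM. COL18A1, a basement membrane collagen whose end fragment is endostatin, was at 1.37 and 1.27 FPKM in sgNTG, 1.95 and 1.86 in sg1 and 1.34 and 1.66 in sg2. Of this group COL18A1 had both sg1 libraries above the other 4.

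Of the listed integrin genes, the highest were alpha chains that recognise the RGD motif. ITGAV, which pairs with several beta chains and binds vitronectin, fibronectin and latent TGF-beta, was at 75.0 and 72.8 FPKM in sgNTG, 67.6 and 67.0 in sg1 and 72.0 and 77.4 in sg2. ITGA5, the alpha chain of the classical fibronectin receptor, was at 36.5 and 37.0 FPKM in sgNTG, 35.1 and 35.7 in sg1 and 41.8 and 41.2 in sg2. ITGAV made up 43.4% to 46.5% of the listed integrin FPKM and ITGA5 22.4% to 25.2%. FN1, the fibronectin that ITGA5 binds, was listed at a mean of 1016 FPKM. Of the listed beta chains that pair with ITGAV, ITGB8, known for activating latent TGF-beta, was at 11.6 to 13.1 FPKM. ITGB3 and ITGB6 did not reach 1 FPKM in any library.

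Other integrin chains were lower. ITGB4, the hemidesmosomal beta chain that binds laminin, was at 18.8 to 20.5 FPKM. ITGAE, an alpha chain known from T cells of epithelia, was at 11.1 to 15.1 FPKM, while ITGB7, the beta chain it needs, was at 0 to 0.0805 FPKM and CDH1, the E-cadherin that the pair binds, at 0.00923 to 0.105 FPKM. ITGAE was therefore listed far above both of its known partners. ITGA1, a collagen and laminin receptor chain, was at 3.65 and 3.52 FPKM in sgNTG, 3.39 and 3.51 in sg1 and 3.98 and 4.07 in sg2. ITGA11, a collagen receptor chain of fibroblasts, was at 0.948 to 1.25 FPKM.

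Some of these genes share their position with another gene, and whether counting used strand is not given in the sources used here. HASPIN lies inside ITGAE on the opposite strand and was listed at 0.954 to 2.05 FPKM. PELO lies inside ITGA1 on the same strand and was listed at 7.92 to 8.69 FPKM. LAMC1-AS1 overlaps LAMC1 at 4.09 to 6.76 FPKM and an antisense gene overlaps LAMB1 at 7.53 to 8.64 FPKM. GALK1 overlaps ITGB4 at 5.83 to 7.70 FPKM. Reads from such partners cannot be told apart without strand, nor those of PELO and ITGA1 with it, and ITGA1 was listed at a lower level than PELO.

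A total of 23 members stayed below the filter, with means from 0.00145 to 0.304 FPKM and no value above 0.440 FPKM in any library. There were no members between 0.304 and 1.15 FPKM, the mean of ITGA11, so the filter split the families at a gap. The untested collagens were COL16A1, COL8A2, COL21A1, COL11A2, COL26A1, COL25A1, COL17A1, COL19A1, COL23A1, COL11A1, COL20A1, COL5A3, COL9A1 and COL1A2. The untested laminins were LAMA2, the alpha chain of muscle laminin, and LAMB4. The untested integrins were ITGB3, ITGA9, ITGB6, ITGB7, ITGAM, ITGAD and ITGA8, which include leukocyte chains (ITGB7, ITGAM, ITGAD) and the platelet chain ITGB3. A value of 0 was listed in at least 1 library for 13 of the 23, and COL1A2, COL9A1 and ITGA8 were at 0 in 5 libraries. A listed 0 was not read as absence.

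The first question was whether a guide against CPT1 changed these genes. With sg1 no member passed an adjusted p of 0.05 in limma, where 0.0113% of all tested genes did. At an unadjusted p under 0.05 limma gave 5 of 25 members, against 9.92% of all tested genes. COL3A1 stood at the head of them: both sg1 libraries, at 12.6 and 13.0 FPKM, lay above the 9.40 FPKM of both sgNTG libraries. Its log2 fold change was 0.41 ± 0.0543 (SE; 95% interval 0.28 to 0.54; 2 libraries per group), a ratio of 1.33 on the FPKM + 1 scale, with a limma adjusted p of 0.135. The next members above 0 were LAMB3 at 0.18 (adjusted p = 0.413), COL18A1 at 0.33 (0.427) and COL4A1 at 0.16 (0.619), all in limma. The order of COL3A1 and COL18A1 by size depended on the pseudocount. With a pseudocount of 0.1 COL18A1 was at 0.50 and COL3A1 at 0.44, and neither passed. On the low side stood LAMC1 at -0.13 (limma adjusted p = 0.295), ITGAV at -0.13 (0.417), LAMB1 at -0.14 (0.521) and COL6A2 at -0.13 (0.619). With a library left out, LAMB1 ran from -0.24 (without sgNTG replicate 2) to -0.04 (without sgNTG replicate 1). Over the same, COL6A2 ran from -0.22 to -0.05 and COL4A1 from 0.04 to 0.28, with both ends of each set by the sg1 libraries. The laminin values thus lay on both sides of 0, with LAMB3 apart from LAMC1.

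Both sg1 libraries lay above both sgNTG libraries for 8 of 25 members and below them for 9, where 22.2% and 18.9% of all tested genes did. In transcripts over 6000 nt they lay above for 5 of 15 members (33.3%) and 12.4% of all tested genes. They lay below for 26.7% of these members and 29.4% of all tested genes of that length. The median log2 fold change was -0.01 over the members and 0.0070 over all tested genes. The members' median was 0.014 with length and GC trends removed, and with a library left out it ran from -0.042 (without sgNTG replicate 2) to 0.0085 (without sgNTG replicate 1). By family the medians were 0.06 for the 11 collagens, -0.03 for the 7 laminins and -0.05 for the 7 integrins. No direction common to the 3 families was seen.

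With sg2 no member passed in limma either, where 0.0225% of all tested genes did, and 1 member was under an unadjusted p of 0.05, against 9.61% of all tested genes. This was ITGA5, with both sg2 libraries at 41.8 and 41.2 FPKM above the 36.5 and 37.0 FPKM of sgNTG. Its log2 fold change was 0.17 ± 0.0397 (SE; 95% interval 0.08 to 0.27) with a limma adjusted p of 0.322. COL27A1 at 0.28 (limma adjusted p = 0.533), LAMB3 at 0.11 (0.627) and ITGA1 at 0.13 (0.635) followed. COL27A1 ran from 0.145 without sg2 replicate 1 to 0.42 without sg2 replicate 2. The members of lowest p below 0 were ITGAE at -0.17 (limma adjusted p = 0.676), LAMB1 at -0.03 (0.906), ITGA11 at -0.04 (0.947) and ITGB4 at -0.0059 (0.985), the last 3 of which turned above 0 when 1 library was left out. ITGAE ran from -0.29 without sg2 replicate 1 to -0.05 without sg2 replicate 2. COL3A1 was at 0.08 with sg2 (limma adjusted p = 0.703).

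Most members lay slightly above sgNTG in sg2. The log2 fold change was above 0 for 20 of 25 members, where it was above 0 for 52.4% of all tested genes, and the libraries did not overlap for 11 members on the high side and 1 on the low side, where 22.3% and 18.7% of all tested genes lay. The median was 0.05 over the members and 0.0062 over all tested genes, and the members' median fell to 0.025 with length and GC trends removed. Among genes with transcripts over 6000 nt, 62.4% of all tested genes and 14 of 15 members were above 0.

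For the mean of both guides against sgNTG, which shares its 2 control libraries with the comparisons above, no member passed in limma and 0.0113% of all tested genes did. At an unadjusted p under 0.05 there were 2 members, against 6.3% of all tested genes. All 4 libraries of the guides lay above both sgNTG libraries for 5 of 25 members and below them for none, where 7.06% and 5.21% of all tested genes did. COL3A1 was at 0.24 ± 0.0470 (SE; limma adjusted p = 0.405), LAMB3 at 0.15 (0.767), COL27A1 at 0.25 (0.768) and COL18A1 at 0.22 (0.778). LAMC1 at -0.05 (limma adjusted p = 0.811), LAMB1 at -0.09 (0.843), ITGAV at -0.06 (0.855) and ITGB4 at -0.04 (0.909) were the members of lowest p below 0. The COL3A1 value was an average of unlike parts, since it was 0.41 with sg1 and 0.08 with sg2.

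**Figure D2:**
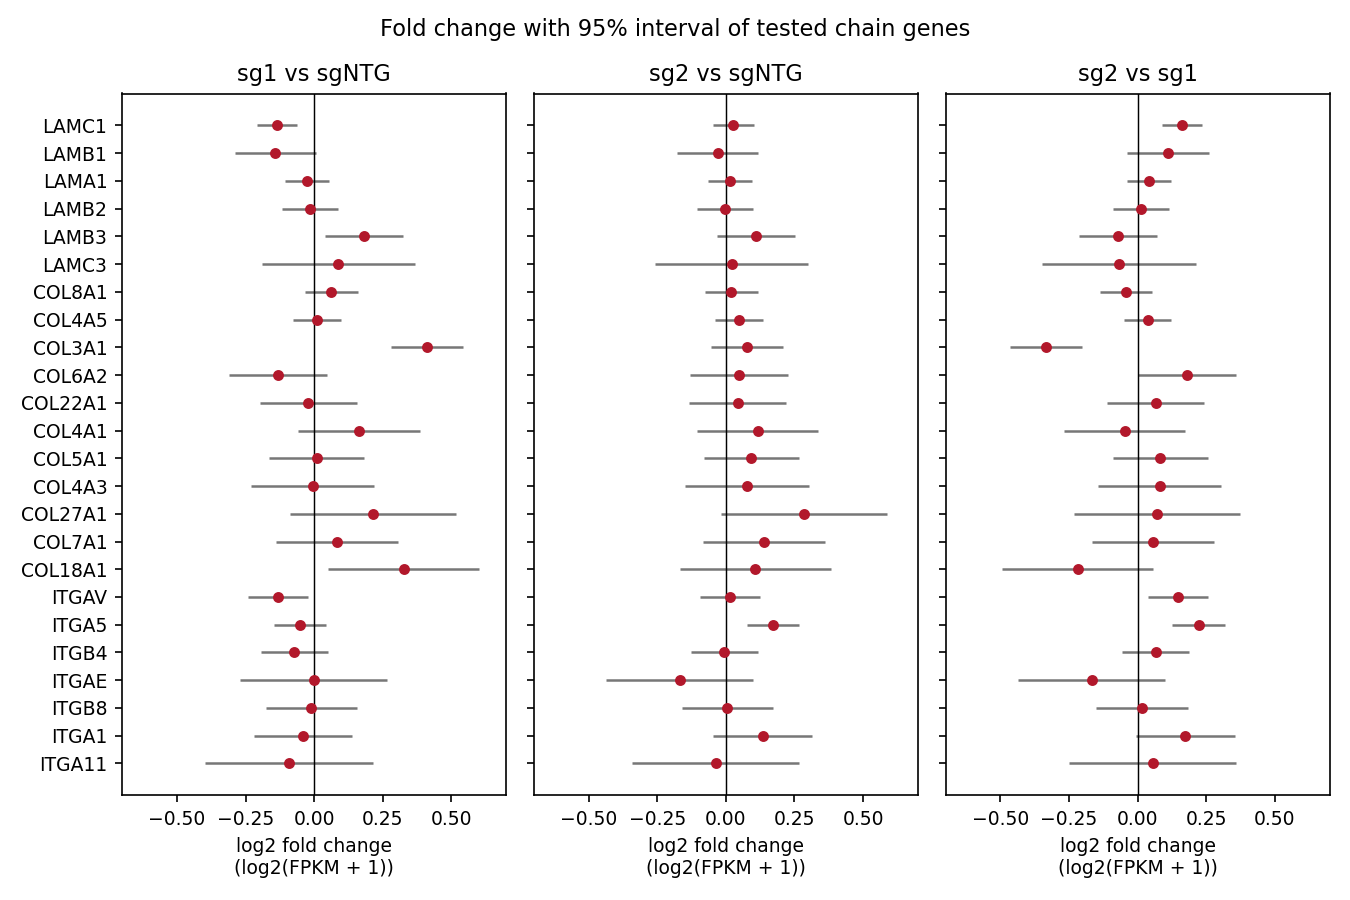
Log2 fold change of tested members, on the log2(FPKM + 1) scale, in sg1 against sgNTG, sg2 against sgNTG and sg2 against sg1, with points for limma estimates, bars for unadjusted 95% intervals and a line at 0. On this scale COL3A1 stands furthest from 0 with sg1, at 0.41, and between the guides, at -0.33, while most other bars reach 0.

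The second question was whether the 2 guides, which the labels give the same genotype, left these genes alike. Between sg2 and sg1 no member passed an adjusted p of 0.05 in limma, where 1.29% of all tested genes did, or 115 genes. At an unadjusted p under 0.05 there were 6 of 25 members against 17.0% of all tested genes, of which 5 were higher in sg2 (background 7.93%) and 1 was lower (9.1%). The smallest adjusted p-values of the members lay just above the threshold and belonged to 1 gene of each family.

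COL3A1 was lower in both sg2 libraries, at 10.1 and 9.85 FPKM, than in both sg1 libraries, at 12.6 and 13.0 FPKM. Its log2 fold change was -0.33 ± 0.0543 (SE; 95% interval -0.46 to -0.20) with a limma adjusted p of 0.0516. ITGA5 was at 41.8 and 41.2 FPKM in sg2 and 35.1 and 35.7 FPKM in sg1, a log2 fold change of 0.22 ± 0.0397 (SE; 95% interval 0.13 to 0.32) with a limma adjusted p of 0.0643. Both genes were named for their low p, so a gap between the guides wider than the spread within each pair follows from that choice. LAMC1 was at 235 and 233 FPKM in sg2 and 207 and 211 FPKM in sg1, a log2 fold change of 0.16 ± 0.0304 (SE; 95% interval 0.09 to 0.24) with a limma adjusted p of 0.0715. These 3 genes passed the threshold when the filter was raised to 5 FPKM, with limma adjusted p of 0.0303, 0.0380 and 0.0434. At that filter 217 of 5020 tested genes passed. Over all alternatives the adjusted p ran from 0.0303 to 0.215 for COL3A1, 0.0380 to 0.241 for ITGA5 and 0.0190 to 0.273 for LAMC1, all in limma.

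ITGAV, which followed, ran the same way as LAMC1 and ITGA5. It was at 72.0 and 77.4 FPKM in sg2 and 67.6 and 67.0 FPKM in sg1 (log2 fold change 0.15, limma adjusted p = 0.186). COL18A1 at -0.22 (limma adjusted p = 0.395), ITGAE at -0.17 (0.503) and LAMB3 at -0.07 (0.596) were the members of lowest p below 0 after COL3A1. With a library left out COL18A1 ran from -0.31 (without sg2 replicate 2) to -0.13 (without sg2 replicate 1), and ITGAE from -0.29 (without sg1 replicate 1) to -0.04 (without sg1 replicate 2). For the abundant chains that showed little difference the intervals were narrow: COL4A5 lay between -0.05 and 0.12, COL8A1 between -0.14 and 0.05 and LAMA1 between -0.04 and 0.12 on the log2 scale.

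**Figure D3:**
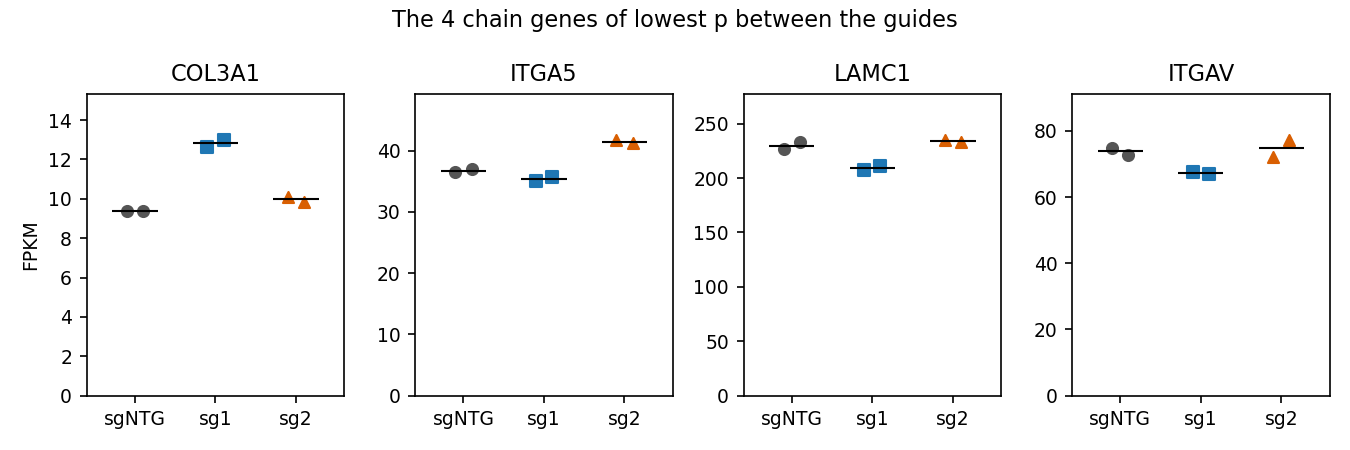
FPKM in each library of the 4 members of lowest p between the guides, on axes that start at 0, with a point per library and a line at the mean of each pair. The sg1 libraries stand above the rest for COL3A1 and below the rest for LAMC1 and ITGAV, and for ITGA5 the sg2 libraries stand above and the sg1 libraries slightly below the rest.

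For COL3A1, LAMC1 and ITGAV the sg1 libraries lay outside the other 4, and for ITGA5 the sg1 libraries were the lowest and the sg2 libraries the highest. These genes were picked by low p between the guides. The share of all tested genes with both sg1 libraries outside the other 4 is not given here, so this is no trait of the members. In 4 of 25 members, among them COL6A2, ITGA1 and ITGA5, both sg1 libraries lay below and both sg2 libraries above both sgNTG libraries, a pattern looked for after the values were seen. Of all tested genes, 4.24% had that pattern. The opposite pattern was found in 0 members and in 4.13% of all tested genes.

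The members encode long transcripts, and the difference between the guides ran with transcript length over all genes. The longest annotated transcript of the tested members had a median of 6483 nt (3461 to 10757 nt), against 3192 nt over the tested genes with a length. Between sg2 and sg1 the median log2 fold change of all tested genes went from -0.06 in transcripts up to 1000 nt to 0.05 in those over 6000 nt. The 15 members over 6000 nt had a median of 0.06, close to that of all genes of their length. Over 25 members the median was 0.06, against 0.0016 over all tested genes, and it was 0.03 once trends with length and GC content had been removed.

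The counts of libraries that did not overlap ran the same way. Both sg2 libraries lay above both sg1 libraries for 12 of 25 members and below them for 3, where 24.4% and 24.2% of all tested genes did. In transcripts over 6000 nt the high side held 7 of 15 members (46.7%) and 41.9% of all tested genes. The part of transcript length in the values of single members was not tested. With these trends removed COL3A1 was at -0.36 and ITGA5 at 0.21, and LAMC1 moved from 0.16 to 0.11.

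**Figure D4:**
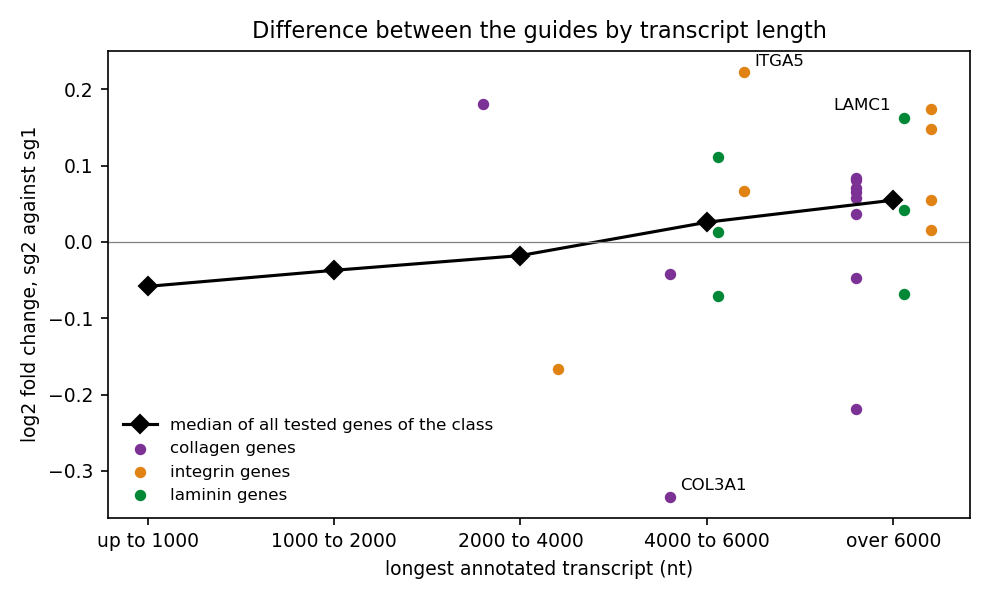
Log2 fold change of sg2 against sg1 by the length of the longest annotated transcript, with black diamonds for the median of all tested genes in a length class and coloured points for tested collagen, integrin and laminin genes. The medians climb from -0.06 to 0.05 with length, and COL3A1 at -0.33 lies far from the median of its class.

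Genes that act on or with these chains were described from 7 lists with 187 genes, of which 82 were listed and reached the test. None was called in any of the 4 comparisons in limma. At an unadjusted p under 0.05 limma gave 2 higher and 6 lower with sg1, 6 higher and 0 lower with sg2, 2 higher and 1 lower for both guides, and 14 higher and 6 lower between sg2 and sg1. Over all tested genes, in either direction, these shares were 9.92% with sg1, 9.61% with sg2, 6.3% for both guides and 17.0% between the guides. Of the 11 tested genes for collagen synthesis and folding, none was under that p with either guide against sgNTG, and 2 were higher and 2 lower between sg2 and sg1.

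With sg1 against sgNTG the partners of lowest p were a basement membrane linker and an actin crosslinker. NID1, the nidogen that joins laminin to type IV collagen, was at 4.64 and 4.42 FPKM in sgNTG, 3.20 and 3.38 in sg1 and 4.23 and 4.68 in sg2, with a log2 fold change of -0.37 ± 0.0807 (SE) with sg1 (limma adjusted p = 0.284). ACTN4, an actinin that connects integrins to actin, was at 95.9 and 83.7 FPKM in sgNTG, 73.5 and 70.6 in sg1 and 93.9 and 100.2 in sg2. Its log2 fold change was -0.31 with sg1 (limma adjusted p = 0.295) and 0.42 ± 0.0701 (SE) between sg2 and sg1 (0.0534). For both genes, which were picked by low p, the sg1 libraries were the lowest of the 6, as for LAMC1. SDC4, a syndecan that acts with ITGA5 on fibronectin, was at 24.3 and 23.5 FPKM in sg2 and 20.4 and 19.7 FPKM in sg1 (log2 fold change 0.24, limma adjusted p = 0.0928). With sg2 against sgNTG PLAUR, the urokinase receptor, was at 0.10 (limma adjusted p = 0.406). For both guides NID1 was at -0.19 and CCN2, a matricellular protein, at 0.10, both at 0.767 after adjustment in limma.

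The labelled line was checked against marker genes. Of the epithelial list, 3 of 6 genes were listed, with KRT19 at 141 to 179 FPKM, KRT18 at 87.4 to 102 FPKM and CDH1 at no more than 0.105 FPKM. The listed epithelial markers summed to 245 and 242 FPKM in sgNTG, 277 and 271 in sg1 and 234 and 228 in sg2. Like COL3A1 these sums were highest in sg1, but in sg2 they lay below sgNTG, where COL3A1 lay slightly above it. The lower sums in sg2 were those of KRT19, at 143.1 and 140.5 FPKM against 155.3 and 154.2 in sgNTG. KRT18 overlapped, at 90.5 and 87.4 FPKM in sg2 and 89.9 and 88.2 in sgNTG. KRT19 was lower in sg2 than in sg1 by a called amount (log2 fold change -0.30 ± 0.0369 SE, limma adjusted p = 0.0338). Of the fibroblast list 4 of 8 genes were listed, with LUM at 44.6 to 49.7 FPKM and the sum at 47.4 to 49.9 FPKM in sgNTG and sg1 and 52.6 FPKM in both sg2 libraries. The sum was mostly LUM, while ACTA2 had a mean of 2.82 FPKM, PDGFRA 0.0294 and POSTN 0.0074. Of the endothelial list 3 of 6 were listed, with a sum of 1.63 to 2.44 FPKM, and of the leukocyte list 3 of 6, with a sum of 31.1 to 34.9 FPKM. The endothelial sum was mostly KDR, with TEK and CLDN5 near 0. In the leukocyte list CD68 had a mean of 23.1 FPKM, CD14 10.1 and LYZ 0.110, so the listed markers of a list did not go together. None of the 4 listed lung lineage markers reached 1 FPKM, with sums of 0.0240 to 0.135 FPKM. The part of these markers in the members' values was not tested. In bulk libraries of a line, fewer cells that express a marker and less of its RNA per cell cannot be told apart.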

How the data were processed

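RNA was taken up in TRIzol and mRNA was captured on beads for the libraries, per the labels' protocols. STAR, StringTie and hg38 are named in the submitters' processing notes. Tool versions, annotation, filters and whether strand was used are not given in the sources at hand. The deposited table, made by the authors, holds FPKM in 52807 rows with 51447 distinct names and 6 sample columns. A total of 32 rows that repeated the name and values of another row were dropped. Positions and transcript lengths came from GENCODE 29 (hg38), and promoter windows from RefSeq (GRCh38.p14).

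Values were taken as log2(FPKM + 1), a scale that understates the change of low genes. Genes whose mean reached 1 FPKM were tested with limma 3.58.1 in R 4.3.3 (1 mean per group over all 6 libraries, eBayes with a variance trend, two-sided). Adjustment was by Benjamini-Hochberg over all 8887 tested genes of a comparison, at a threshold of 0.05. The fit was tested on simulated data in which 200 genes were changed. Over the 4 comparisons it called 6.3% to 10.3% of changes of log2 0.25 and 41.7% to 56.5% of those of 0.5. For changes of log2 1 it called 86.9% to 91.1%. A member that did not pass was therefore not shown to be unchanged. Tables were joined with pandas 2.3.3 in Python 3.11.15.

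The members and lists were chosen with earlier results of these data known. Members named in a comparison were the 4 of lowest p above 0 and the 4 below 0, beside the most abundant chains of each family and their partner chains. Of the partner lists the 2 genes of lowest p in each comparison were named. Some values these rules pick are not reported here.

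The depth per library is unknown in FPKM. Steps between low values of short genes put the libraries at 0.853 to 1.0 of the depth of the deepest one. The listed values summed to 251704 to 260500 FPKM per library, and the Pearson r of log2 values across genes was 0.9908 to 0.9923 between libraries of a group and 0.9884 to 0.9912 between groups. No count test was run. Alternatives were another pseudocount (0.1), no filter, a filter of 5 FPKM, no variance trend, median-of-ratios and quantile scaling, a replicate block, only the libraries of the groups compared, leaving out each library, and, added after the data were seen, removal of length and GC trends.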

Additional observations from a re-analysis of the deposited data

How the results depend on the processing

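No member was called in any comparison as reported, and leaving out 1 library in turn called 0 members in all 4. Between sg2 and sg1, 3 members were called with a filter of 5 FPKM (COL3A1, ITGA5 and LAMC1), 1 with median-of-ratios scaling (COL3A1, limma adjusted p = 0.0480) and 1 with quantile normalization (LAMC1 at 0.25, limma adjusted p = 0.0190). The filter of 5 FPKM tests fewer genes; for the scalings the cause was not tested. With a replicate block 0 members were called in all 4 comparisons. Samples with the same number did not deviate together over all tested genes (correlations of 0.0343, -0.0276 and 0.0603). Such values show no large shared deviation by number, but cannot tell whether the libraries were paired. Of 465 alternatives over 32 named member and comparison pairs, 454 kept the direction and the side of the threshold, 5 passed the threshold and 6 turned the sign. LAMB1 with sg2 against sgNTG was at 0.016 with quantile normalization. With a library left out it ran from -0.13 to 0.067 (above 0 without sgNTG replicate 1), and for both guides from -0.18 to 0.012 (above 0 without the same library). ITGA11 with sg2 ran from -0.094 to 0.020 (above 0 without sg2 replicate 1), and ITGB4 with sg2 from -0.033 to 0.021 (above 0 without replicate 2 of sgNTG or of sg2). The counts over all tested genes moved more. With sg1 the 1 called gene became 0 with no filter, no variance trend, the replicate block or length and GC trends removed, and 1 to 6 with a library left out. With sg2 the 2 called genes became 0 with no filter, no variance trend, either scaling, the replicate block or only the libraries compared, and 0 to 5 with a library left out. For both guides the 1 called gene became 0 with no filter, no variance trend or the replicate block, and 0 to 7 with a library left out. Between the guides the 115 called genes became 0 with no filter or no variance trend, 217 with a filter of 5 FPKM, 5 with the replicate block, 59 with length and GC trends removed, 26 with only the libraries compared and 4 to 26 with a library left out. Where limma called 0 genes, 541 to 2646 genes had an unadjusted p under 0.05. The comparison of both guides with only the libraries of the groups compared has the same libraries as reported and was not run. With no filter, which takes in low chains too, the members' median was 0.020 with sg2, 0.0072 for both guides and 0.020 between the guides. For both guides it was -0.0041 with a filter of 5 FPKM and -0.012 without sgNTG replicate 2. Without counts the depth behind a value is unknown, and chains below 1 FPKM were not tested as reported.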
